A study of Mus musculus with 9 samples.

Results

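Collagen genes were followed in the gastrocnemius, a calf muscle, of wild-type C57BL/6 mice (substrain C57BL/6J in the methods) whose hindlimbs had been taken off load and then put back on it. A gene was counted as a collagen chain if its mouse symbol read Col, a number, the letter a and a second number, and if its biotype was protein coding, which gave 44 chains among 55487 genes. Of these, 37 passed the filter on low counts and were tested, 11 of 11 fibrillar chains, 7 of 8 basement membrane chains (types IV, XV and XVIII) and 19 of 25 chains of other types. Whole-muscle poly(A) RNA was sequenced from mice in conventional cages (Control, n = 4), from mice after 10 days of hindlimb unloading (Unloading, n = 2) and from mice that had been unloaded in the same way and then bore weight for 1 day (Reloading, n = 3). The labels give the mice as male and give no age, whereas the study's methods describe females for the unloading procedure. No mouse carried an engineered allele, and each library is treated as 1 mouse because no label names a shared animal.

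Collagens are the main proteins of the extracellular matrix. Their chains wind around each other into a stiff helix in the endoplasmic reticulum, with the help of prolyl and lysyl hydroxylases and of the chaperone HSP47, and are then secreted, trimmed and cross-linked. Fibrillar collagens (types I and III above all) form the tensile fibrils of the connective tissue around fascicles and fibres and of tendon, type IV forms the sheet-like network of the basement membrane around each muscle fibre and capillary, and type VI links that membrane to the surrounding fibrils. In muscle most fibrillar collagen is made by fibroblast-like interstitial cells, while type IV is also made by endothelial and muscle cells.

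Type IV genes lie in head-to-head pairs, and the genomic layout of the pair that carries the largest rise in these data is shown because its members moved together. Col4a1 (chr8:11198423-11312826, minus strand) and Col4a2 (chr8:11312805-11449287, plus strand) are read in opposite directions from starts that overlap by 22 bases in the annotation (GRCm38). These 22 bases, which belong to the first exons of both genes, are in capitals below with 4 flanking bases on either side (chr8:11312801-11312830, plus strand, sequence from RefSeq on GRCm38.p6).
Col4a1-Col4a2 start: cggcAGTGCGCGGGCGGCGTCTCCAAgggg
The sequence holds GGGCGG, the letters of a GC box, and 80% of its bases are G or C. The 250 bases before the start of the fibrillar chain Col3a1 (chr1:45311288-45311537, plus strand) and of the short chain Col8a1 (chr16:57754738-57754987, minus strand) are shown beside it. Both genes also rose with reloading, and their stretches differ in G and C content. Capitals mark 3 motifs on either strand. The GC box is spelled GGGCGG, or CCGCCC on the other strand. The CCAAT box is spelled as its name, or ATTGG on the other strand. The TATA box is spelled TATAAA, or TTTATA on the other strand. None of the motifs contains another.
Col3a1: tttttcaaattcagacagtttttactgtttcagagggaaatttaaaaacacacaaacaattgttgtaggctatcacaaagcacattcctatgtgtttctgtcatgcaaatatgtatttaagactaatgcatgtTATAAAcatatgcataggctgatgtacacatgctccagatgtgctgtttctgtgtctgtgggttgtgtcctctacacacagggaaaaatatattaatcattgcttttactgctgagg
Col8a1: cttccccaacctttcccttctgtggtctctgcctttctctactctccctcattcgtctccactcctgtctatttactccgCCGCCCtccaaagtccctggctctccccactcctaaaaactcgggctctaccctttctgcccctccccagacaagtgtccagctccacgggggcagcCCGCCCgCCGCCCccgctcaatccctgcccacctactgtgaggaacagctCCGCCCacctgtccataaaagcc
The Col3a1 stretch is 35.2% G or C and holds 1 TATA box, beginning 117 bases before the start, and no GC box. The Col8a1 stretch is 60.8% G or C and holds 4 GC boxes, the nearest beginning 23 bases before the start. The 80% of the type IV pair is for a shorter stretch within exons. Over like windows, from 250 bases before to 50 bases after the start, G or C made up 74.0% for Col4a1 and 73.7% for Col4a2. In such windows it was 60.3% for Col8a1 and 37.7% for Col3a1. RefSeq windows from 250 bases before to 50 bases after the start were matched for 35 of the 44 chains, and GC boxes were found in 22 of them (62.9%), against 35.7% of all 32851 windows of that length. A GC box was present in 9 of the 14 matched chains that rose on reloading and in 8 of the 15 matched tested chains that did not, a CCAAT box in 6 of 14 and 4 of 15, and a TATA box in 2 of 14 and 2 of 15. The windows of Col4a1 and Col4a2, which both rose, overlap. The GC box in their shared bases above lies in both windows, so it is counted for both chains. Over all windows a CCAAT box was found in 37.4% and a TATA box in 13.6%. These matches describe letters in a window, and binding to them was not measured. A link between them and the rise was not tested.

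Libraries held between 9252443 and 19612101 read pairs in genes, so that 1 read pair was worth between 0.0546 and 0.113 CPM (counts scaled to library size) after TMM scaling. No 2 of the 9 libraries held identical counts. Genes of the contractile fibre dominated every library, with a summed level of 148861 to 161440 CPM over 8 muscle fibre genes in Control, 149142 to 152673 in Unloading and 106834 to 119423 in Reloading. Transcripts of epidermis and hair stood apart in Control 2, with a summed 346 CPM over 15 genes, and in Reloading 1, with 161 CPM, whereas the other 7 libraries held 14.6 to 23.1 CPM. Counts of called chains, group shares and the type IV pair are also given without these 2 libraries.

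Per unit of exon length the collagen transcripts of this muscle came mostly from types I, III, IV and VI. On the FPKM scale (fragments scaled by exon length and library size), the Control means were 18.7 for Col1a1, 12.3 for Col1a2, 11.9 for Col3a1, 10.2 for Col6a1, 8.47 for Col4a2 and 8.18 for Col4a1. The next chain, Col6a2, stood at 4.6 FPKM. Neighbours in this order down to Col4a1 differed by less than the SD among Control libraries of the higher one, which was 8.24 FPKM for Col1a1 and 4.08 FPKM for Col1a2 (n = 4). In Reloading the order was another, with Col1a1 at 28.4, Col4a2 at 27.7 and Col4a1 at 26.1 FPKM ahead of Col3a1 at 19.0 and Col1a2 at 16.7 FPKM. These orders depend on the summed exon lengths used, which were 6563 bases for Col1a1 and 12426 for Col1a2. In CPM, without length, the Reloading means were 207 for Col1a2, 195 for Col4a1, 187 for Col1a1, 186 for Col3a1 and 184 for Col4a2. In Control, Col1a2 at 152 CPM was above Col1a1 at 123 CPM. At the low end, 11 of the 37 tested chains had a mean level over all libraries below 0.25 FPKM.

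**Figure D1:**
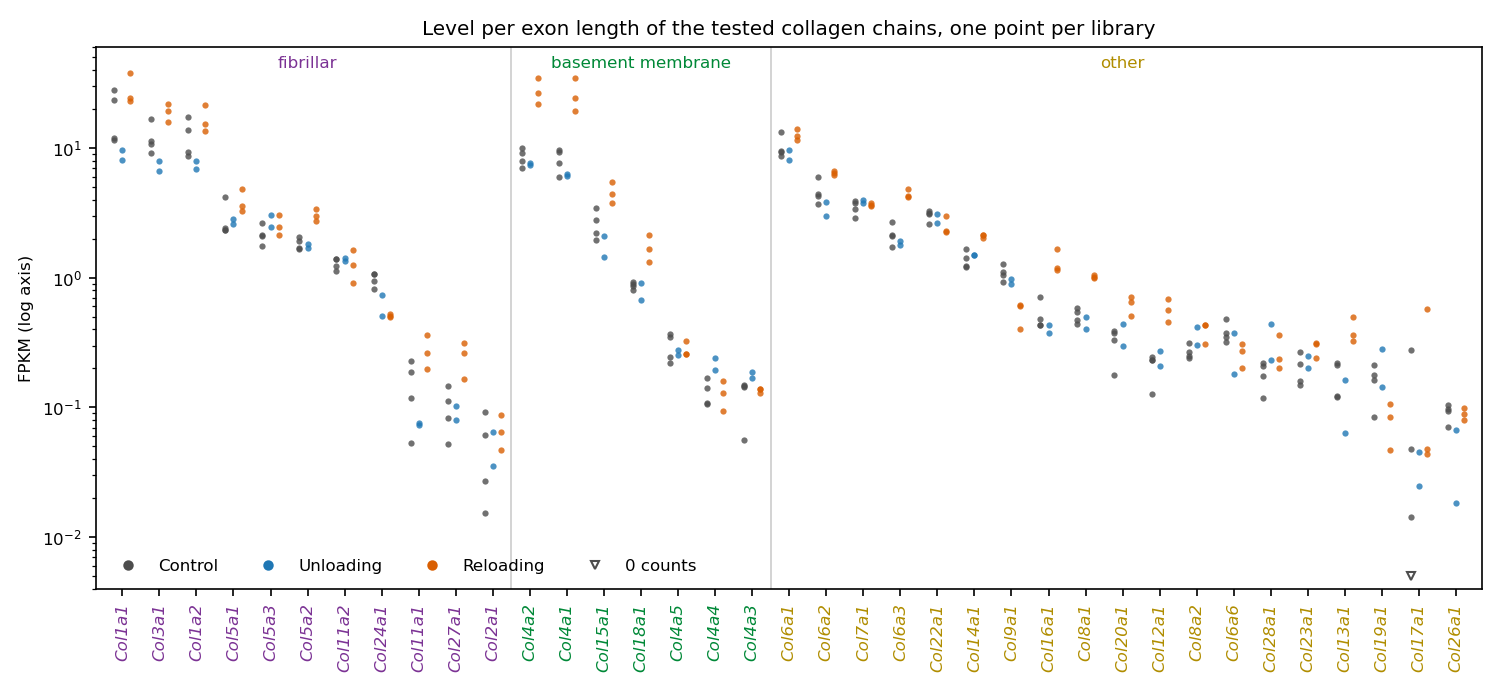
Level of the 37 tested collagen chains in FPKM (log axis), with 1 point per library, Control in grey, Unloading in blue and Reloading in orange, and chains ordered by mean level within each class. The orange points of Col4a1 and Col4a2 stand apart from all others of these genes, at 19.3 to 34.7 FPKM, and the triangle marks the library in which Col17a1 had 0 counts.

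Together the 44 chains took a small share of the counts, which was lowest after unloading and highest after reloading. The share was 0.0778% ± 0.0163 (SD, n = 4) in Control, 0.0573% ± 0.00316 (n = 2) in Unloading and 0.155% ± 0.0315 (n = 3) in Reloading. The lowest Reloading library, at 0.128%, lay above the highest Control library, Control 2 at 0.101%, and the highest Unloading library, at 0.0595%, lay below the lowest Control library, at 0.0639%. Basement membrane chains made up 20.5% ± 3.01 of the collagen FPKM in Control, 22.3% ± 0.718 in Unloading and 34.5% ± 2.13 in Reloading. Fibrillar chains made up 50.5% ± 5.04, 43.1% ± 0.883 and 43.4% ± 1.05 in the same groups, and chains of other types 29.0% ± 2.79, 34.6% ± 0.165 and 22.1% ± 2.51. Without Control 2 and Reloading 1 the collagen share of the counts was 0.0701% ± 0.00644 (n = 3) in Control and 0.137% ± 0.0137 (n = 2) in Reloading, and the basement membrane part 21.1% ± 3.38 and 33.7% ± 2.22. The sums carry no test.

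**Figure D2:**
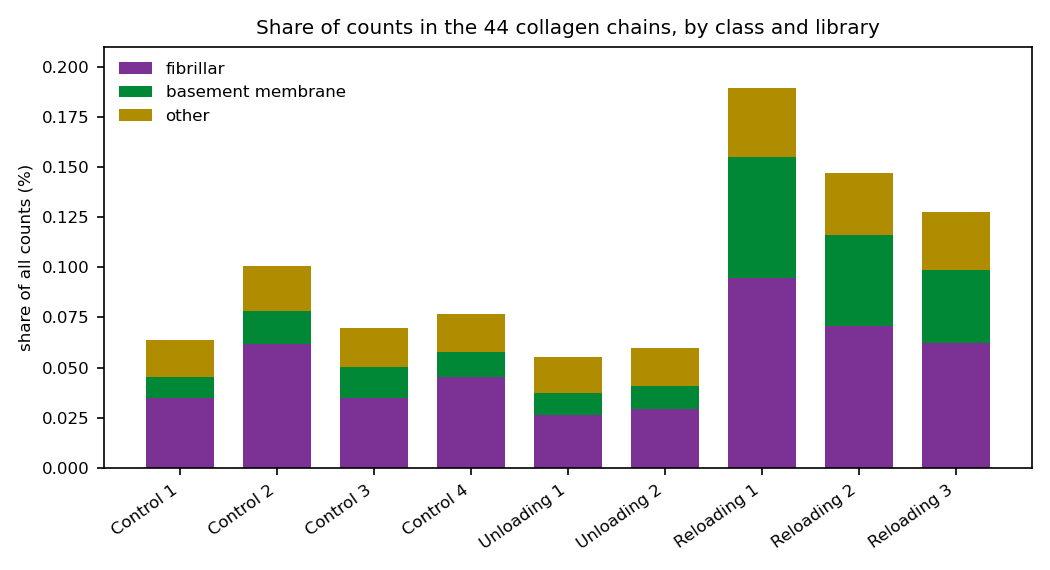
Share of all counts, in percent, that fell in the 44 collagen chains, drawn as stacked bars from 0 for each of the 9 libraries and split into fibrillar, basement membrane and other chains. The 3 Reloading bars reach 0.128% to 0.189% and the tallest bar of the other groups reaches 0.101%.

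The first comparison asked how 10 days without load changed the chains. After unloading, Col1a1, Col3a1 and Col24a1 were lower than in Control, and no chain passed the test as higher. In the edgeR quasi-likelihood test with Benjamini-Hochberg adjustment over all 14851 tested genes, 0 chains rose, 3 fell (all fibrillar) and 34 were not called. These 3 are 8.11% of the 37 tested chains, a share no larger than the 9.9% of all tested genes called in either direction (4.4% higher and 5.5% lower). At an unadjusted p below 0.05 the same test counted 11 chains (29.7%, against 25.7% of all genes), 8 lower and 3 higher, and DESeq2's Wald test called 2 chains, both lower. All Unloading libraries lay below all Control libraries in 6 of 37 chains (16.2%, against 16.6% of all tested genes) and above them in 3, Col4a3, Col4a4 and Col28a1 (8.11%, against 16.4%). Without Control 2 and Reloading 1, 1 of 35 tested chains was higher (Col5a3) and 2 were lower (Col1a1 and Col3a1), which is 8.57% called against 7.59% of all genes. The median log2 fold change was -0.18 over the chains and -0.0038 over all tested genes.

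Col1a1 (chr11:94936224-94953042) encodes the α1 chain of type I collagen, the main fibril collagen. Its libraries held 76.0, 183, 77.9 and 153 CPM in Control and 52.7 and 63.8 CPM in Unloading. Control 2 and Control 4 were high, the other Control libraries were close together, and both Unloading libraries lay below them all. The log2 fold change was -1.07 ± 0.31 (SE, adjusted p = 0.0399 in edgeR). The call was lost in 7 of 18 alternatives, with a log2 fold change of -0.81 and adjusted p = 0.0656 without Control 2, and of -0.94 and adjusted p = 0.33 without Unloading 1.

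Col3a1, the chain of type III collagen, which is mixed into type I fibrils in distensible tissue, held 105, 163, 111 and 89.5 CPM in Control and 65.0 and 77.8 CPM in Unloading. The groups did not overlap, and the log2 fold change was -0.71 ± 0.19 (SE, adjusted p = 0.0261). Col24a1 (chr3:145292472-145552011), a minor fibrillar chain, held 7.22, 8.21, 8.15 and 6.26 CPM in Control and 3.89 and 5.63 CPM in Unloading. Again the groups were apart, and the chain fell by 0.63 on the log2 scale (SE 0.17, adjusted p = 0.0297). Calls for all 3 chains were lost without Unloading 1, when 0 chains passed and 3 had an unadjusted p below 0.05. DESeq2's Wald test kept Col24a1 and gave adjusted p = 0.107 for Col1a1 and 0.0739 for Col3a1.

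Col1a2, the partner of Col1a1 in the type I helix, held 115, 216, 109 and 170 CPM in Control and 85.3 and 98.4 CPM in Unloading. Its groups did not overlap either, but the log2 fold change of -0.73 ± 0.23 (SE) missed the threshold (adjusted p = 0.0625). The basement membrane and other chains had no call. Col4a1 was at -0.40 ± 0.20 and Col4a2 at -0.18 ± 0.16, the type VI chains lay between -0.44 (Col6a2) and -0.21 (Col6a3), and Col7a1 was at 0.14 ± 0.10. The largest positive values were 0.87 ± 0.36 for Col28a1 (adjusted p = 0.141) and 0.71 ± 0.27 for Col4a4 (adjusted p = 0.115). With the numbers of the sample descriptions as a replicate block, 6 chains were called lower (16.2%, against 9.96% of all genes), the 3 above with Col15a1, Col1a2 and Col6a2.

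The summed cartilage and bone list was uneven among the libraries in which Col1a1 was uneven, mostly through 1 gene, Ibsp. The 9 genes of that list summed to 2.14 and 2.21 CPM in Control 1 and Control 3. They summed to 6.71 and 6.18 CPM in Control 2 and Control 4, where Col1a1 was high. In Unloading, where Col1a1 was low, the sum was 6.36 and 5.14 CPM. Ibsp held 0.226, 4.06, 0 and 2.92 CPM in Control 1 to Control 4, and 4.19 and 3.33 CPM in Unloading. Bglap held 0 to 0.858 CPM in Control, and Sox9 was even there, at 1.35 to 1.71 CPM. Tenocyte markers summed to 107 to 153 CPM in Control and 110 to 115 CPM in Unloading, and the fibroblast list to 1147 to 1375 and 1648 to 1726 CPM. The part of these cells in the differences was not tested.

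**Figure D3:**
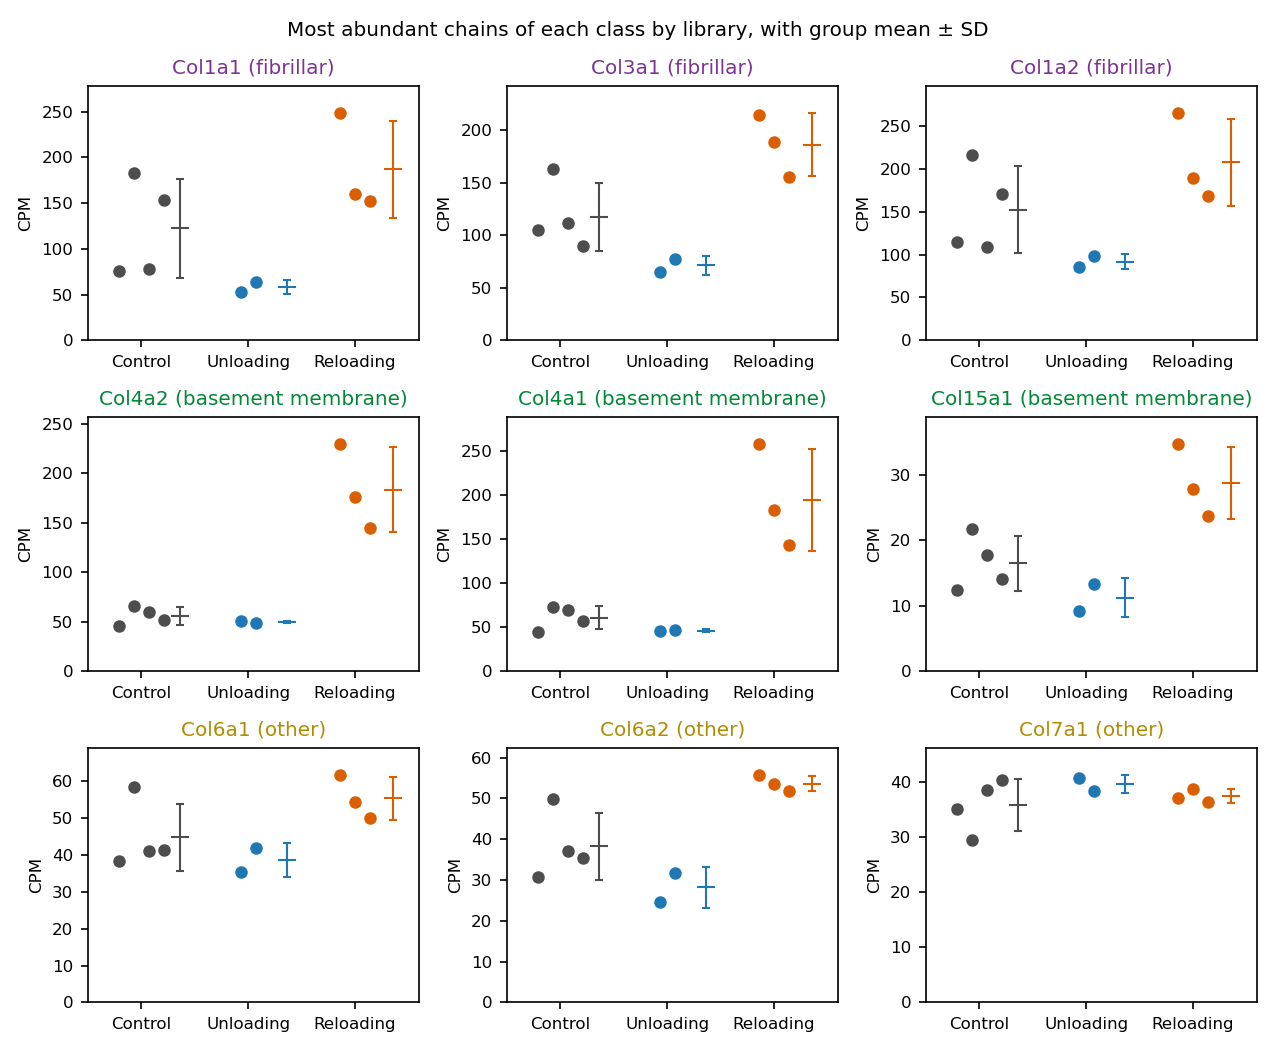
CPM of the 3 chains with the highest mean FPKM in each class, with 1 point per library and the group mean ± SD drawn to the right of the points, each panel starting at 0. In 8 of the 9 panels every Reloading library lies above both Unloading libraries, and in the panel of Col7a1 the groups overlap.

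The second comparison asked what 1 day of renewed load did to unloaded muscle. It used the same Unloading libraries (n = 2) as the first, so falls there and rises here are not independent. Many more chains rose than fell. Of the 37 tested chains, 18 rose, 3 fell and 16 were not called, which is 56.8% called against 37.5% of all tested genes. In all genes 18.5% were called higher and 19% lower. The median log2 fold change was 0.77 over the chains and 0.03 over all tested genes, and 14 of the called chains (37.8% of those tested) were at least 2-fold higher, against 6.24% of all tested genes. A called fall of at least 2-fold was seen in 1 chain (2.7%, against 1.99%). Every Reloading library was above every Unloading library in 21 chains (56.8%, against 31% of all tested genes) and below them in 4 (10.8%, against 29%). Among fibrillar chains 6 rose and 0 fell of 11 (median 0.79), among basement membrane chains 4 rose and 1 fell of 7 (median 1.08), and among the other chains 8 rose and 2 fell of 19 (median 0.51).

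The type IV pair Col4a1 and Col4a2, whose products combine in the network of nearly every basement membrane, rose most among the called chains. Col4a1 held 45.6 and 47.3 CPM in Unloading and 258, 183 and 144 CPM in Reloading. Col4a2 held 50.5 and 48.9 CPM in Unloading and 229.5, 176 and 145 CPM in Reloading. Every Reloading library was far above both Unloading libraries, and Reloading 1 was the highest for both genes. The log2 fold change was 2.07 ± 0.22 for Col4a1 (SE, 4.19-fold, adjusted p = 6.08e-06) and 1.88 ± 0.17 for Col4a2 (SE, 3.69-fold, adjusted p = 1.37e-06). Without Control 2 and Reloading 1 these were 1.81 ± 0.16 and 1.69 ± 0.12.

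The other type IV chains, which serve basement membranes of kidney, lung and a few other sites, were low and did not rise with them. Col4a3 and Col4a4 form a second head-to-head pair on chromosome 1, and Col4a5 and Col4a6 a further pair on the X chromosome. Col4a4 held 34 and 38 counts in Unloading (2.55 and 2.08 CPM) and 21, 19 and 15 in Reloading (1.69, 1.37 and 0.993 CPM), with no overlap, and fell by 0.77 on the log2 scale (adjusted p = 0.0467), a call that was lost in 9 of 18 alternatives. Col4a3 was at -0.39 ± 0.31 and Col4a5 at 0.07 ± 0.28, neither called, and Col4a6 was too low to read. Exons of Col4a3 share 5.65% of their length with an annotated gene on the opposite strand, C430014B12Rik, and the counting did not use strand.

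The basement membrane zone collagens XV and XVIII, which carry heparan or chondroitin sulphate chains and tie the membrane to the fibrils outside it, rose as well. Col15a1 (chr4:47208161-47313167) held 9.21 and 13.3 CPM in Unloading and 34.7, 27.8 and 23.8 CPM in Reloading. All Reloading libraries were above both Unloading libraries, and the chain rose by 1.33 ± 0.22 on the log2 scale (adjusted p = 0.000232). Col18a1, whose C-terminal fragment is endostatin, changed by 1.08 ± 0.19 (SE, adjusted p = 0.00041).

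Of the fibrillar chains, the 3 abundant ones rose together. Col1a1 held 52.7 and 63.8 CPM in Unloading and 248, 160 and 152 CPM in Reloading, so that it rose by 1.68 ± 0.33 on the log2 scale (adjusted p = 0.000992). Col3a1 went from 65.0 and 77.8 CPM to 215, 189 and 155 CPM, at 1.38 ± 0.20 (SE, adjusted p = 8.45e-05). Col1a2 went from 85.3 and 98.4 CPM to 265, 189 and 168 CPM, at 1.17 ± 0.25 (SE, adjusted p = 0.00177). In each of the 3 genes the groups were apart and Reloading 1 was the highest library.

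Of the type V and XI chains, which are built into type I or type II fibrils and set their diameter, Col5a2 rose by 0.79 ± 0.12 (adjusted p = 0.000148), and Col5a1 was at 0.52 ± 0.22 (adjusted p = 0.0726). Col11a1 (chr3:114030540-114220718) had the third largest rise among called chains, from few counts. It held 13 and 17 counts in Unloading (0.973 and 0.929 CPM) and 57, 46 and 38 counts in Reloading (4.59, 3.33 and 2.52 CPM). Its log2 fold change was 1.85 ± 0.42 (SE, adjusted p = 0.0032), and Reloading was above Unloading in every library. Col5a3 at -0.11 ± 0.16 and Col11a2 at -0.14 ± 0.19 were not called, so the chains of types V and XI differed among themselves in size and in sign, which was not tested. Col27a1, a minor fibrillar chain of cartilage, rose by 1.45 ± 0.35 (adjusted p = 0.00485) and lost its call without Unloading 2 (adjusted p = 0.0664).

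Type VI collagen is a beaded filament assembled from α1, α2 and a larger chain, and mutations in its genes cause muscular dystrophies. Col6a1 (chr10:76708792-76726168) held 35.3 and 41.96 CPM in Unloading and 61.6, 54.4 and 50.1 CPM in Reloading. Col6a2 (chr10:76595762-76623630) held 24.7 and 31.8 CPM in Unloading and 55.7, 53.4 and 51.9 CPM in Reloading. Neither gene had overlapping groups, and the log2 fold changes were 0.51 ± 0.15 (SE, adjusted p = 0.0142) and 0.92 ± 0.15 (SE, adjusted p = 0.000326). Col6a3 rose by 1.25 ± 0.14 (adjusted p = 8.18e-06), and Col6a6 was at -0.14 ± 0.29, not called. Per exon length the ratio of Col6a3 to Col6a1 was 0.212 ± 0.0152 in Unloading and 0.351 ± 0.0211 in Reloading, with no overlap between libraries of the groups (0.201 to 0.223 and 0.334 to 0.375). It was 0.212 ± 0.0266 in Control. The call of Col6a1 was lost without Unloading 1 or without Reloading 1.

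Among the fibril-associated collagens, which sit on the surface of fibrils with interrupted helices, values ran in both directions. Col16a1 rose by 1.71 ± 0.23 (adjusted p = 5.31e-05), Col12a1 by 1.25 ± 0.24 (adjusted p = 0.000799) and Col14a1 by 0.48 ± 0.13 (adjusted p = 0.0109). Col12a1 and Col14a1 are known from tendon and from the connective tissue at its junctions. Without Unloading 1 or Unloading 2 the call of Col14a1 was lost.

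Col19a1 (chr1:24261890-24587472), a scarce chain that differentiating muscle cells are known to make, held 26 and 18 counts in Unloading (1.95 and 0.984 CPM) and 4, 8 and 11 counts in Reloading (0.322, 0.579 and 0.728 CPM). It fell by 1.35 on the log2 scale (adjusted p = 0.0271) with no overlap between the groups, and the call was lost in 5 of 18 alternatives, among them the one without Control 2 and Reloading 1. Col9a1 (chr1:24177610-24252684), a chain of type IX collagen known from cartilage, held 4.94 and 4.54 CPM in Unloading and 3.06, 2.02 and 3.11 CPM in Reloading. It fell by 0.79 on the log2 scale (adjusted p = 0.00711), stayed called in all 18 alternatives, and its groups were apart. Col22a1, a collagen of the myotendinous junction, was at -0.21 ± 0.13 (adjusted p = 0.24) and Col20a1 at 0.77 ± 0.29 (adjusted p = 0.0507).

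Of the remaining chains, Col8a1, a short chain of vessel walls, rose by 1.19 ± 0.17 (adjusted p = 6.74e-05), whereas its partner Col8a2 was at 0.13 ± 0.27 and not called. Col13a1 (chr10:61838236-61979108), a transmembrane collagen of muscle and the neuromuscular junction, went from 4 and 14 counts in Unloading to 21, 32 and 23 in Reloading and rose by 1.70 ± 0.40 (adjusted p = 0.0041). Its call was lost without Unloading 1. Col7a1 (chr9:108953586-108984875), the collagen of anchoring fibrils, was among the abundant chains and had no call, at 40.7 and 38.4 CPM in Unloading and 37.2, 38.8 and 36.4 CPM in Reloading. These groups overlapped, with a log2 fold change of -0.08 ± 0.11 (SE) that turned to 0.17 when libraries were scaled by their totals alone.

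Col17a1, the transmembrane collagen of epidermal hemidesmosomes, had the largest fitted log2 fold change of all chains, 2.49 ± 1.26, and was not called (adjusted p = 0.135). It held 0.150 and 0.273 CPM in Unloading and 3.47, 0.289 and 0.265 CPM in Reloading. Only Reloading 1 was high, and among the Control libraries, at 0, 1.66, 0.286 and 0.0858 CPM, only Control 2 was high. These are the libraries with epidermal transcripts. Without both of them, 19 of 35 tested chains rose and 3 fell on reloading (62.9% called, against 31.3% of all genes), with Col19a1 lost and Col5a1 and Col22a1 gained.

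**Figure D4:**
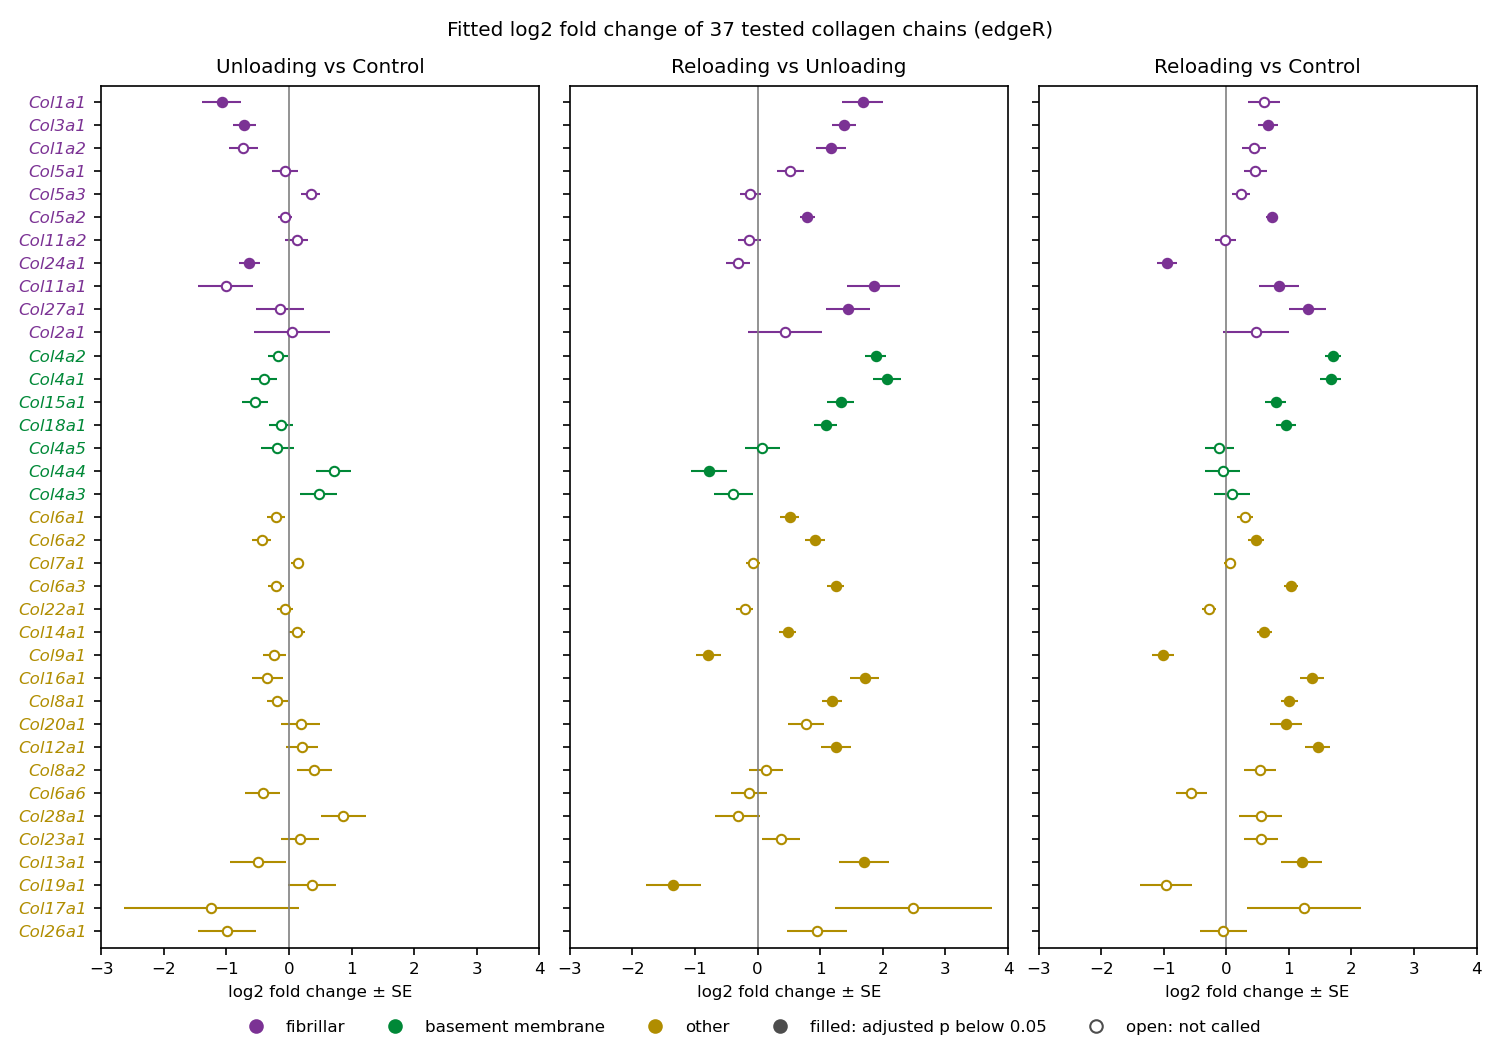
Fitted log2 fold change ± SE of the 37 tested chains in the 3 comparisons, coloured by class and ordered by mean level within a class, with filled points for an adjusted p below 0.05. Unloading vs Control has 3 filled points, all below 0, while Reloading vs Unloading has 18 above 0 and 3 below.

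The third comparison set reloaded muscle against muscle that had never been unloaded. It shares its Reloading libraries with the second and its Control libraries with the first. Of the 37 tested chains 16 were higher, 2 were lower and 19 were not called, which is 48.6% called against 43.5% of all tested genes, of which 22.1% were higher and 21.3% lower. With the description numbers as a replicate block, 24 chains were called (64.9%, against 44.7% of all genes), 19 higher and 5 lower. Without Control 2 and Reloading 1, 21 of 35 tested chains were called (60%, against 34.4%), 18 higher and 3 lower. Every Reloading library was above every Control library in 14 of 37 chains (37.8%, against 24.2% of all tested genes) and below them in 3 (8.11%, against 22.7%). The median log2 fold change was 0.55 over the chains and 0.01 over all tested genes. By class, 4 fibrillar chains were higher and 1 lower, 4 basement membrane chains were higher and 0 lower, and 8 other chains were higher and 1 lower.

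Col4a1 and Col4a2 were again at the top. Col4a2 held 46.1, 65.9, 60.2 and 52.1 CPM in Control, and its log2 fold change in Reloading was 1.70 ± 0.13 (SE, adjusted p = 1.68e-07). Col4a1 held 44.5, 72.6, 70.0 and 57.1 CPM in Control, at 1.66 ± 0.17 (SE, adjusted p = 2.12e-06). The lowest Reloading library, at 144 CPM for Col4a1 and 145 CPM for Col4a2, was above every Control library. Without Control 2 and Reloading 1 the log2 fold changes were 1.60 ± 0.11 for Col4a2 and 1.5 ± 0.14 for Col4a1. Col12a1 (chr9:79598991-79718831) came next, with 3.72, 3.56, 1.93 and 3.52 CPM in Control and 10.4, 8.61 and 6.95 CPM in Reloading. Its groups were apart and its log2 fold change was 1.46 ± 0.20 (SE, adjusted p = 4.28e-05). Col16a1 at 1.36, Col27a1 at 1.30, Col13a1 at 1.20, Col6a3 at 1.04 and Col8a1 at 1.00 on the log2 scale followed, all called. Col15a1 held 12.4, 21.7, 17.7 and 14.1 CPM in Control, and Col6a2 held 30.8, 49.9, 37.1 and 35.4 CPM. Both were called higher in Reloading, at 0.79 ± 0.17 and 0.48 ± 0.13. Col6a1, which was not called, held 38.2, 58.3, 40.9 and 41.4 CPM in Control.

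In the edgeR fit reported here, type I collagen was not called against Control. Col1a1 was at 0.60 ± 0.25 (adjusted p = 0.0672) and Col1a2 at 0.44 ± 0.20 (adjusted p = 0.0835), with overlapping groups for both, since Control 2 and Control 4 were high. With the description numbers as a replicate block these became adjusted p = 0.0098 for Col1a1 and 0.0148 for Col1a2, and without Control 2 they became 0.00555 and 0.00442. Without Reloading 1 the log2 fold changes were 0.35 (adjusted p = 0.329) and 0.23 (adjusted p = 0.401), and DESeq2's Wald test gave adjusted p = 0.246 and 0.283. Col6a1, at 0.30 ± 0.12 (adjusted p = 0.0614), changed to 0.0118 with the block, to 0.00108 without Control 2 and to 0.225 without Reloading 1. Without Control 2 and Reloading 1 together, edgeR called all of these chains. The log2 fold changes were then 0.60 for Col1a1 (adjusted p = 0.0447), 0.44 for Col1a2 (adjusted p = 0.0343) and 0.37 for Col6a1 (adjusted p = 0.00754). Col3a1 was higher by 0.67 ± 0.16 (adjusted p = 0.00301), although Control 2 at 163 CPM was above Reloading 3 at 155 CPM. Col11a1, at 0.84 ± 0.32 (adjusted p = 0.0452), lost its call in 8 of 18 alternatives, the block among them (adjusted p = 0.0627).

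The chains that were lower than in Control, Col9a1 and Col24a1, ranked 18 and 20 of 44 by mean FPKM. Col9a1 held 4.74, 5.64, 5.29 and 6.43 CPM in Control against 3.06, 2.02 and 3.11 CPM in Reloading, and was lower at a log2 fold change of -1.02 ± 0.18 (adjusted p = 0.000288). Col24a1, with 7.22, 8.21, 8.15 and 6.26 CPM in Control, held 3.79, 3.98 and 3.84 CPM in Reloading, which is -0.95 ± 0.16 on the log2 scale (adjusted p = 0.000192). Reloading lay below every Control library for both. Col24a1 thus had lower values in Unloading and in Reloading than in Control, and Reloading vs Unloading was -0.32 ± 0.19 (adjusted p = 0.2), so a difference between these was not detected. Col7a1 held 35.1, 29.5, 38.4 and 40.3 CPM in Control and was at 0.06 ± 0.09 (adjusted p = 0.621), or 0.30 (adjusted p = 0.0135) when libraries were scaled by their totals alone.

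Ratios within a library compare basement membrane with fibrillar collagen. Per exon length the ratio of Col4a1 plus Col4a2 to Col1a1, Col1a2 and Col3a1 was 0.318 to 0.578 in Control, 0.537 and 0.638 in Unloading and 0.783 to 0.87 in Reloading. Reloading lay above the other groups, which overlapped, also without Control 2 and Reloading 1. The ratio of Col4a1 to Col4a2 was 0.959 ± 0.0736 in Control, 0.83 ± 0.041 in Unloading and 0.932 ± 0.0595 in Reloading, and that of Col1a1 to Col1a2, which form type I collagen together, was 1.48 ± 0.209, 1.20 ± 0.0407 and 1.70 ± 0.0894 in the same order. Both Unloading libraries, at 1.17 and 1.23, were below all others in the latter. The size of the Col1a1 to Col1a2 ratio depends on the exon lengths used, 6563 and 12426 bases, but its comparison between libraries does not.

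Some chains cannot be read at this depth. Under 10 counts were found in every library for 6 of the 44 chains, Col4a6 (highest count 8), Col6a5 (7), Col9a3 (5), Col10a1 (3), Col9a2 (3) and Col6a4 (2). Col9a2, Col9a3 and Col10a1 are cartilage collagens, and Col4a6 is a minor type IV chain. Col25a1, a transmembrane collagen needed for innervation of muscle, reached 11 counts in 1 library and also failed the filter. Changes in these 7 were not detectable here. Of the tested chains, Col2a1, the main collagen of cartilage, held 2 to 10 counts and Col26a1 2 to 12 counts, and neither had a call in any comparison.

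Lists of genes whose products fold, process or bind collagen were read against all tested genes. Of 22 tested genes for folding and modification, 11 rose and 3 fell on reloading (63.6% called, against 37.5% of all genes), and 0 passed the test on unloading (against 9.9%). Serpinh1, which encodes the collagen chaperone HSP47, held 29.2, 44.1, 36.5 and 34.1 CPM in Control. It held 21.6 and 28.4 CPM in Unloading and 121, 96.6 and 85.6 CPM in Reloading. Every Reloading library was above all others, and the log2 fold change was 2.00 ± 0.17 (SE, adjusted p = 7.87e-07), while Unloading vs Control was at -0.52 ± 0.16 (adjusted p = 0.0573). The prolyl 4-hydroxylase subunits P4ha1 and P4ha2 rose on reloading by 0.95 ± 0.12 and 0.74 ± 0.11, and the lysyl hydroxylase Plod2 by 0.90 ± 0.25. Those that fell were Tmem38b, Ctage5 and Mia3, at -0.50, -0.38 and -0.20 on the log2 scale. These are named because they were all that fell, after their values were seen.

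Of 13 tested genes for processing and cross-linking, 4 rose and 0 fell on reloading (30.8% called, against 37.5% of all genes). Pcolce, which enhances removal of the procollagen C-propeptide, rose by 0.87 ± 0.15 (adjusted p = 0.00034) and the lysyl oxidase gene Loxl2 by 0.54 ± 0.20 (adjusted p = 0.0465). Lox encodes the founding member of the enzymes that cross-link fibrillar collagen. It held 3.16, 5.39, 4.14 and 5.41 CPM in Control, 10.3 and 6.83 CPM in Unloading and 11.3, 14.4 and 9.93 CPM in Reloading. Control was below both other groups, which overlapped. Lox was higher in Unloading than in Control by 0.88 ± 0.22 (adjusted p = 0.0195) and in Reloading than in Control by 1.37 ± 0.19 (adjusted p = 3.96e-05), and Reloading vs Unloading, at 0.49 ± 0.21, was not called (adjusted p = 0.0785).

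Among 9 tested receptors 3 rose and 0 fell on reloading (33.3% called, against 37.5% of all genes). They were Itgb1, the β subunit shared by the collagen-binding integrins, Itga10 and the uptake receptor Mrc2, at 0.82 ± 0.08, 1.44 ± 0.33 and 0.77 ± 0.12 on the log2 scale, named after their values were seen. Itgb1 held 159 to 181 CPM in Control, 166 and 169 CPM in Unloading and 304, 312 and 273 CPM in Reloading. The collagen-binding integrin subunits Itga1 and Itga11 were at 0.34 ± 0.18 and -0.27 ± 0.22, and the receptor tyrosine kinase Ddr2 was at -0.08 ± 0.10, none of them called. Ddr2 was slightly higher in Unloading than in Control, by 0.33 ± 0.09 (adjusted p = 0.0395). Of 14 laminins, nidogens and other basement membrane partners, 8 rose and 0 fell (57.1% called). Nid2, 1 of the nidogens that join laminin to type IV collagen, rose by 1.03 ± 0.19 (adjusted p = 0.000688) and Nid1 by 0.31 ± 0.08 (adjusted p = 0.00933). Among the laminin chains, Lamc1 rose by 0.85 ± 0.11 and Lama4, the α chain of vessel laminins, by 0.70 ± 0.14, while Lamb1 was at 0.38 ± 0.14 (adjusted p = 0.0504) and Lama2, the α chain of the muscle fibre membrane, at -0.02 ± 0.09, neither called. Lama2 was higher in Unloading than in Control by 0.30 ± 0.09 (adjusted p = 0.0436).

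**Figure D5:**
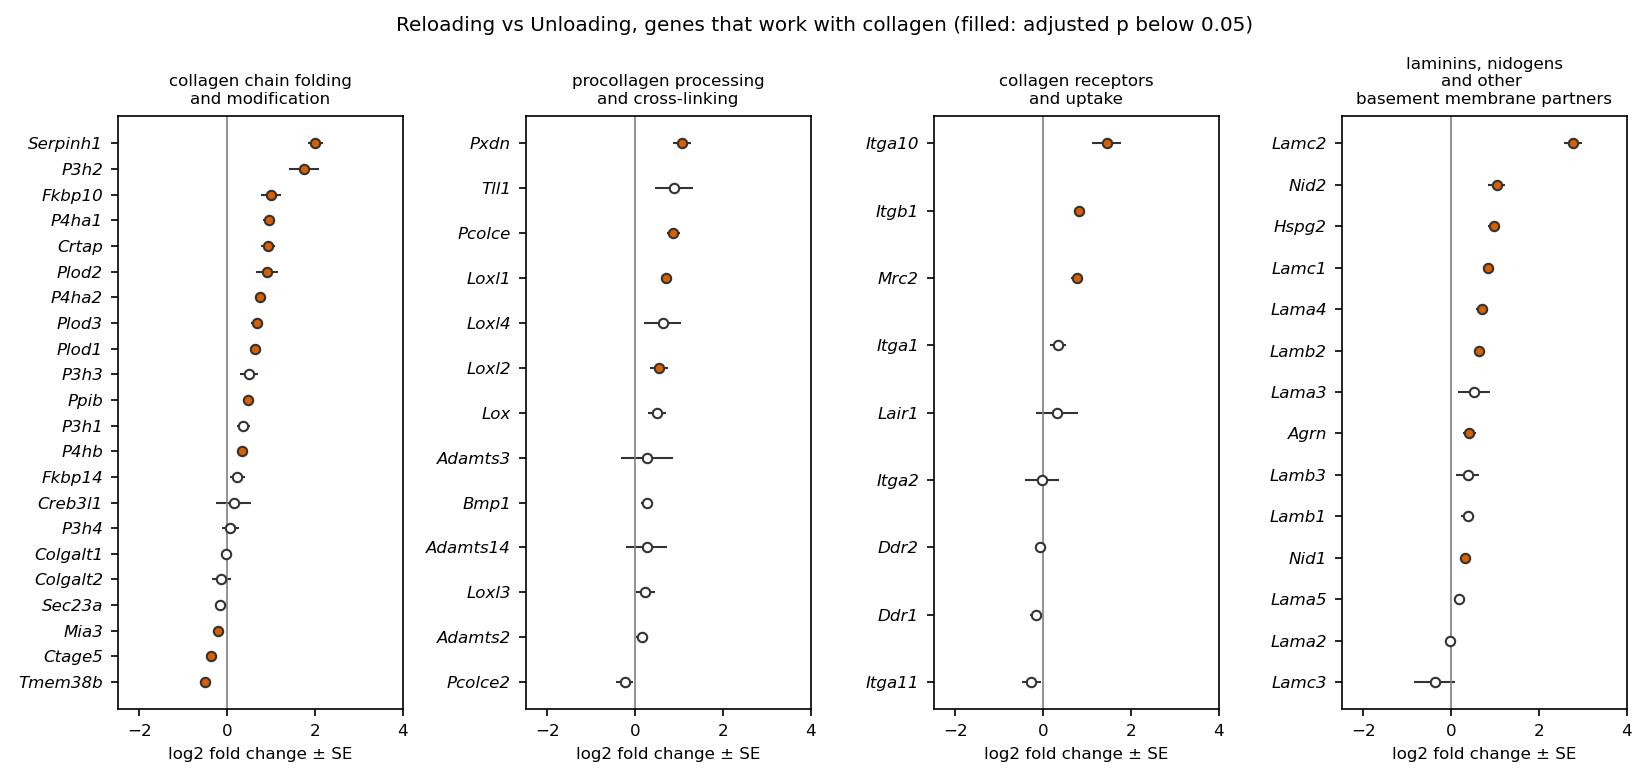
Fitted log2 fold change ± SE in Reloading vs Unloading for the tested genes of 4 lists around collagen, with filled points for an adjusted p below 0.05. Filled points to the right of 0 number 11 for folding and modification, 4 for processing and cross-linking, 3 for receptors and 8 for basement membrane partners, and those to the left number 3, all in the first list.

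Markers of several cell types moved in the same comparison as the chains, in which 18.5% of all tested genes were called higher and 19% lower. Endothelial markers summed to 247 to 257 CPM in Unloading and 403 to 487 CPM in Reloading, with 10 of 11 genes higher. Tenocyte markers summed to 110 to 115 and 197 to 286 CPM, with 6 of 8 higher, and macrophage markers to 94.99 to 97.5 and 181 to 204 CPM, with 10 of 11 higher. Smooth muscle and pericyte markers summed to 473 to 505 and 519 to 553 CPM, with 8 of 10 higher and 1 lower, and Schwann cell markers to 43.9 to 55.5 and 97.3 to 135 CPM, with 6 of 8 higher. The fibroblast list summed to 1648 to 1726 and 1159 to 1181 CPM, with 4 of 14 genes higher and 4 lower and a median log2 fold change of 0.11. Its most abundant genes, Gsn at 968 and 1058 CPM in Unloading and 578 to 591 CPM in Reloading and Dcn at 362 and 321 and 229 to 257 CPM, were lower, while Fbln1, Mfap5, Cd34 and Ly6a were higher. Satellite cell markers had 1 of 4 tested genes higher and the cartilage and bone list 2 of 4, and 0 of 12 tested epidermal genes were higher with 1 lower. None of the listed marker genes was at 0 in all libraries. Whether more cells of a type or more transcript per cell lies behind a chain's change cannot be told apart in whole-muscle RNA, and the part of these cell types was not tested.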

How the data were processed

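Gene counts were deposited by the authors as whole read pairs per gene (featureCounts 2.0.3, STAR 2.7.3a, GRCm38.p6, Ensembl release 102, not strand-specific, per the file headers and labels). Symbols and biotypes came from the deposited comparison tables, whose log2 fold changes and p-values (the authors' DESeq2 results) were not used. The study's methods give single reads, whereas the counts are of pairs. Libraries held 9252443 to 19612101 counts. The ± values are SDs between libraries or SEs of the fit, and no interval of counting error alone is given.

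The members and gene lists were chosen with earlier results of these data known. Counts were tested with edgeR 4.0.16 (R 4.3.3) by the quasi-likelihood F-test after TMM scaling and filterByExpr (minimum count 10, minimum total 15), in 1 fit of 9 libraries with group as the only term, and p-values were adjusted by Benjamini-Hochberg over 14851 genes at a threshold of 0.05. The SE is the log2 fold change divided by the square root of F. FPKM used summed exon length. Replicates are libraries the labels number separately, and nothing says whether they were run apart, so p-values measure the spread between these libraries. The procedure was tested on simulated counts, drawn with 1 common spread for all genes (coefficient of variation 0.0927). Col1a1 varied more in Control (123 ± 54.1 CPM, SD, n = 4), so that test cannot vouch for calls of such chains.

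Values in every library are given for the 3 chains with the highest mean FPKM in each class. For up to 3 higher and 3 lower called chains in each comparison, they are given in the libraries of the groups compared. For the other chains, named after their values were seen, mostly fold changes are given. Pathway genes named are Serpinh1, P4ha1, P4ha2, Plod2, Lox, Loxl2, Pcolce, Itga1, Itga11, Ddr2, Lama2, Lama4, Lamb1, Lamc1, Nid1 and Nid2, with the exceptions stated. A chain with under 10 counts in every library was called too low to read.

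The labels number the samples in the titles and, differently, in the descriptions. Deviations from the group means of same-numbered Reloading and Control libraries correlated at -0.19, -0.20 and -0.02 by title number and at 0.36, 0.14 and 0.16 by description number. The 0.36 belongs to Reloading 1 and Control 2, the libraries with epidermal transcripts, and the part of skin in it was not tested. Pairs with an Unloading library correlated at 0.017, 0.054 and 0.075 by description number. Only the description numbers were taken to pair Reloading with Control, a choice made from these same data. Alternatives were other scalings (DESeq2 size factors, library totals), no filter, a robust fit, replicate blocks, only the groups compared, DESeq2 1.42.0, each library left out in turn, and Control 2 and Reloading 1 left out together. Promoter windows were taken from RefSeq (GRCm38.p6), the first listed for the 3 chains with several. Figures were drawn with matplotlib 3.10.9.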

Additional observations from a re-analysis of the deposited data

Results flagged for a closer look

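In Control, the only group with 4 libraries, 38 chains that reached 10 counts in some library were searched for a library far from the other 3 by Dixon's criterion, and 5 were found. Chance flags about 1 in 20 such groups. Control 2 held 35.9 CPM of Col5a1 against 19.8 to 20.8 CPM in the others, 58.3 CPM of Col6a1 against 38.2 to 41.4 CPM, and 0.497 CPM of the scarce Col25a1 against 0.172 to 0.226 CPM. Control 3 held 1.93 CPM of Col12a1 against 3.52 to 3.72 CPM. Control 1 held 0.564 CPM of Col4a3, from 5 counts, against 1.43 to 1.49 CPM. Control 2 is also the library with the highest summed level of epidermal and hair transcripts, at 346 CPM, and Col6a1 and Col5a1 passed the threshold for Reloading vs Control without it. The part of skin in these values was not tested.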

How the results depend on the processing

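In Reloading vs Unloading 16 to 23 chains passed the threshold over all alternatives (21 as reported), and in Reloading vs Control 17 to 26 (18 as reported). Calls over all genes moved too. Where every group kept at least 2 libraries, they numbered 4563 to 6340 in Reloading vs Unloading (5562 as reported). In Reloading vs Control they numbered 5082 to 7512 over the alternatives, with 5939 beside the 17 chains, which were counted without Control 3. Library totals alone gave the 26 chains in Reloading vs Control, with 7512 genes called against 6456 as reported. Unloading vs Control was less stable. Its 3 chains became 9 without a filter (1 higher, 8 lower), 1 in the robust fit, 2 with DESeq2's Wald test, and 0 to 5 when libraries were left out in turn, with 0 without Unloading 1, 1 without Unloading 2 or Control 2, and 5 without Control 1. Without a filter the fit took each gene's spread from the trend alone, so its p-values say nothing about a gene's own spread between libraries. Genes called in Unloading vs Control numbered 2022 without a filter, 1662 in the robust fit and 1335 with DESeq2's Wald test. They numbered 1357 without Control 1 and 1120 without Control 2. Over all genes the 1470 calls ranged from 121 (without Unloading 1) to 1518 when libraries were left out, with 949 without Control 3. A library left alone in its group was assumed to vary like those of the other groups. With the replicate block by description number, 22 chains passed in Reloading vs Unloading, 6 in Unloading vs Control and 24 in Reloading vs Control. Over all genes 4902, 1479 and 6632 passed in the same order. With the block by title number, whose libraries do not deviate together, the counts were 21, 4 and 20 chains and 5108, 1042 and 5705 genes.

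Scaling by library totals alone moved the median of all genes to 0.27 in Reloading vs Unloading and 0.25 in Reloading vs Control, and 82.8% and 80.2% of the calls over all genes were then higher, against 49.3% and 50.9% with TMM. Of the chains, 20 rose and 1 fell on reloading under this scaling, and Col7a1 turned from -0.08 to 0.17. In Reloading vs Control, Col7a1 rose to 0.30 and gained a call (adjusted p = 0.0135) under this scaling. It ranged from -0.029 (without Control 2) to 0.124 as libraries were left out, around 0.06 as reported, and was -0.019 without both Control 2 and Reloading 1. When mitochondrial genes were left out of the total, the collagen share was 0.0864% in Control, 0.0635% in Unloading and 0.166% in Reloading. The highest Unloading library, at 0.0662%, still lay below the lowest Control library, at 0.0713%. Among 972 fold changes recomputed, 889 kept direction and side of the threshold, 45 lost and 35 gained a call, and 3 turned. The causes were not tested.

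The SE in Reloading vs Unloading was 0.59 for Col2a1, with 2 to 10 counts, and 0.11 for Col7a1, with 311 to 703 counts. For Col17a1 it was 1.26, where Reloading 1 held 43 counts and each other Reloading library 4. The part of depth in these values was not tested.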
